A study of Brassica napus with 12 samples.

Results

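The 3 stretches described here are runs of neighbouring genes on A chromosomes of Brassica napus (oilseed rape) whose transcripts were more abundant in the cultivar Zhongshuang 9 than in the cultivar Avatar. Each identifier carries a chromosome and a gene number, and the members were taken by gene number: 99 targets from BnaA01g29890D to BnaA01g30870D, 116 from BnaA03g49560D to BnaA03g50710D, and 82 from BnaA05g33630D to BnaA05g34440D. Together they are 297 of 101040 annotated coding sequences. The stretches were chosen by the cultivar difference in CPM and TPM in these same libraries, in both treatments. The cultivar difference is therefore given as a description without a test. The submergence response in each cultivar and its difference between the cultivars were tested. The latter equals the cultivar difference under submergence minus that in air, so its test is not independent of the choice. The response in each cultivar is formed from the same levels, so its test is not wholly independent either.

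Brassica napus is an allotetraploid, a species that carries the chromosomes of 2 parental genomes, called A and C. Most genes are present as related A and C copies, and matching copies lie in similar order along related A and C chromosomes. Segments of such chromosomes are known to have been exchanged between the genomes in many lines of the species, and gene dosage and transcript level of neighbouring genes can then differ together between cultivars.

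RNA was sequenced from the first true leaves of seedlings of both cultivars, harvested at an age of 16 days and grown with 8 h of light a day. The 4 groups were Avatar in air, Avatar under water, Zhongshuang 9 in air and Zhongshuang 9 under water, each with 3 libraries carrying the replicate numbers 1, 3 and 4. Submerged plants were covered completely with tap water for 24 h from day 15, and air controls stood in the same kind of box without water. The labels name no mutant, transgene or chemical agent in any group. The labels do not say whether a library holds 1 plant or several, or whether replicates came from separate sowings, so p-values measure only the spread between these samples. In whole leaves, fewer cells of a type and less RNA per cell cannot be told apart. The identifiers carry no gene names, so the leaf label could not be checked against marker genes, and the roles of the members are not given.

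The libraries held between 24389813 and 35873196 estimated counts, and a count of 0 in a library allows up to 3 counts. By library totals alone this is 0.0836 to 0.123 CPM (counts after scaling for library size). The CPM values below carry a further scaling (TMM), so the limit holds for them only roughly. This limit covers counting error only. Zhongshuang 9 submergence replicate 1 stood apart from its group, with a rank correlation across targets of 0.89 to replicates 3 and 4, which correlated at 0.988 with each other. Avatar air replicate 1 and Avatar submergence replicate 1 departed from the other Avatar libraries in a part of the A03 stretch. Cultivar and submergence medians and calls that rest on these 3 libraries are given with and without them. Levels relative to Avatar, ratios of group means and overlap counts use all 12 libraries.

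Of the 297 members, 63 had no count in any of the 12 libraries (19 on A01, 31 on A03 and 13 on A05). The filter on low counts left 173 members for testing, 60 on A01, 60 on A03 and 53 on A05. This was 58.2% of members, against 55.1% of all targets. Among the 173 were 39 members that did not reach 1 CPM in 3 Avatar libraries, so that their place in the test could rest on Zhongshuang 9. A mean of at least 2 CPM over the 12 libraries was reached by 42 members on A01, 45 on A03 and 41 on A05, 128 in all. Levels by library below are given for these 128. The median mean TPM (abundance per coding length) of tested members was 2.86 on A01, 4.55 on A03 and 3.66 on A05, against 2.91 for all tested targets.

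In each library, the level of a member was taken as log2(CPM + 1) minus the mean of the 3 Avatar libraries of the same treatment, and the median over members was expressed as a percentage of Avatar. On A01 the 42 members stood at 206%, 204% and 212% of Avatar in Zhongshuang 9 air replicates 1, 3 and 4. Under submergence replicates 3 and 4 stood at 207% and 187%, but replicate 1 at 102%. The 6 Avatar libraries lay between 97.4% and 103%. The A01 median was thus at about the same raised level in 5 of the 6 Zhongshuang 9 libraries and at the Avatar level in the remaining library. Single members of that library lay to both sides of Avatar: the quartiles were -0.34 and 0.41 (log2), and 22 of the 42 members were above the Avatar mean.

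**Figure D1:**
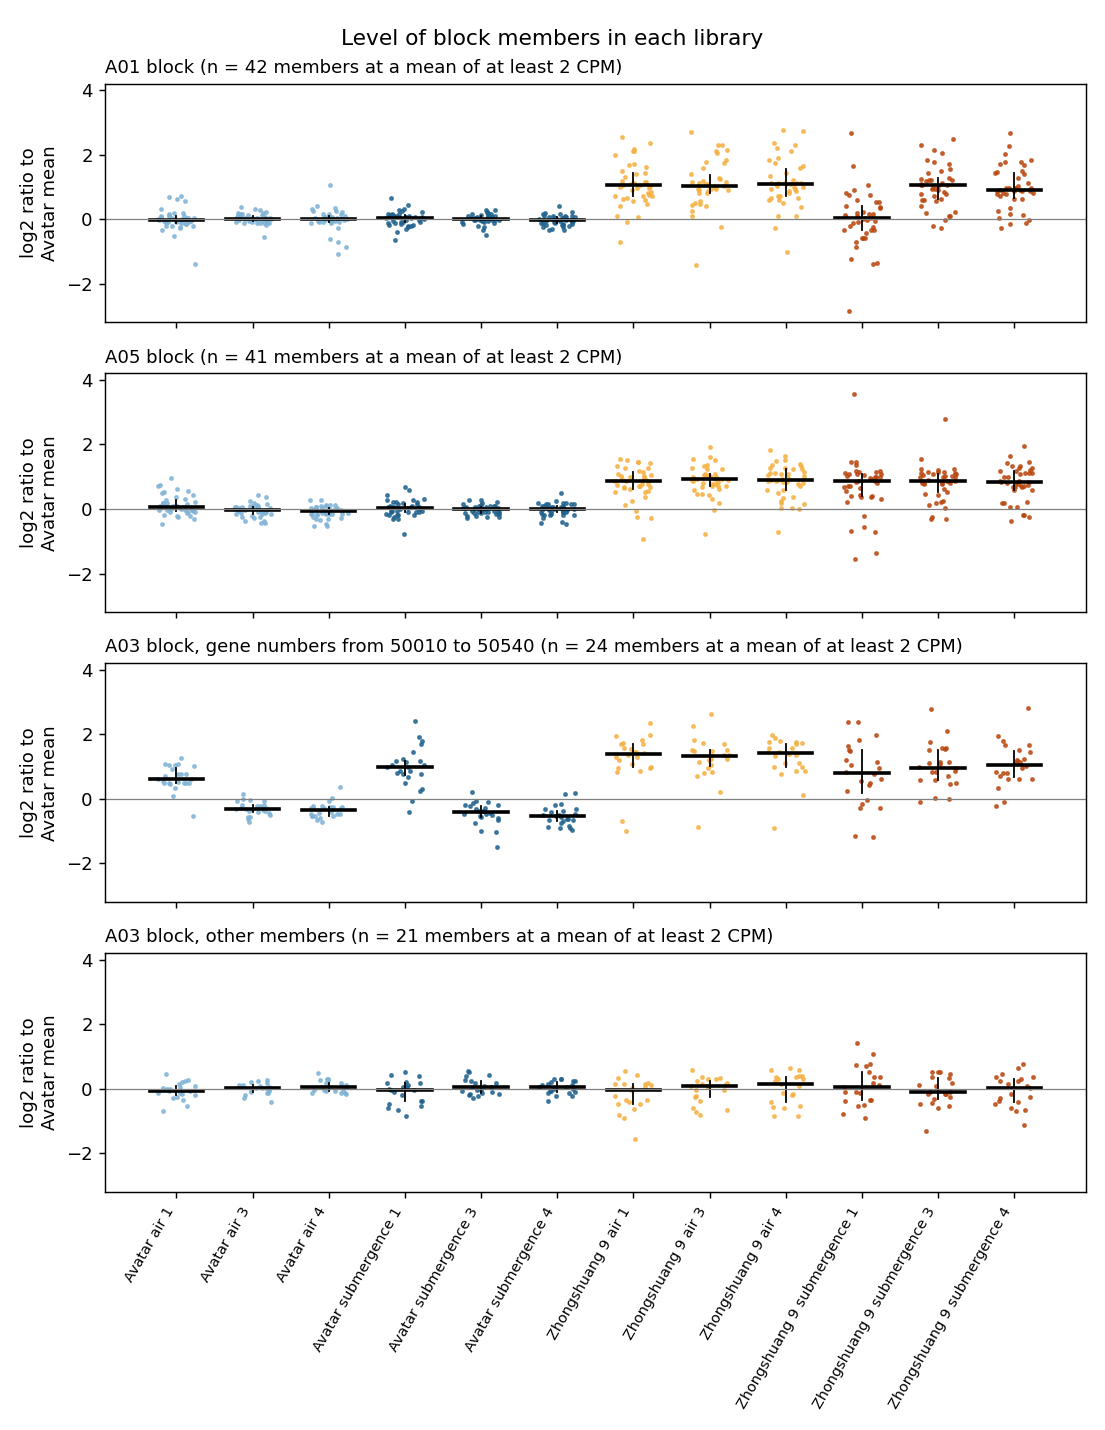
Level of each member with a mean of at least 2 CPM (points) in each of the 12 libraries, as log2(CPM + 1) minus the mean of the 3 Avatar libraries of the same treatment; horizontal bars are medians and vertical bars run from the lower to the upper quartile. The A01 median is near 0 in Zhongshuang 9 submergence replicate 1 (102% of Avatar), the A05 median is raised in all 6 Zhongshuang 9 libraries (177% to 189%), and the inner A03 members are also raised in Avatar air and submergence replicate 1 (152% and 199%).

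On A05 the 41 members stood at 184%, 189% and 189% of Avatar in Zhongshuang 9 air and at 182%, 183% and 177% under submergence, replicate 1 included. The Avatar libraries lay between 95% and 106%. All 6 Zhongshuang 9 medians were thus above all 6 Avatar medians on A05.

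The A03 stretch was not uniform. The 24 members at 2 CPM or more from BnaA03g50010D to BnaA03g50540D, an inner stretch whose limits were set after the values were seen, stood at 262%, 251% and 265% of the Avatar mean in Zhongshuang 9 air and at 173%, 196% and 207% under submergence. The Avatar libraries differed among themselves here: replicate 1 stood at 152% in air and 199% under submergence, against 81.2% and 78.7% for air replicates 3 and 4 and 74.7% and 68.8% for submergence replicates 3 and 4. Avatar air replicate 1 was the highest library of its group for 23 of these 24 members, and Avatar submergence replicate 1 for 22. Over all targets the shares were 38% and 39.7%. The median of Avatar submergence replicate 1 was thus above that of Zhongshuang 9 submergence replicates 1 and 3. The median of the other 21 members of the A03 stretch lay between 92.9% and 111% of Avatar in all 12 libraries. Single members departed from it in both directions: 5 of the 21 were over 1.5-fold above Avatar in Zhongshuang 9 submergence replicate 1, and others lay below Avatar, as given further on for named members.

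Counted gene by gene, ratios of the group means in air fell between 1.5 and 3 for 24 of 42 members on A01, 32 of 41 on A05 and 14 of 45 on A03. They exceeded 3 for 13, 3 and 10 members, lay between 0.67 and 1.5 for 4, 5 and 16, and were under 0.67 for 1, 1 and 5. Under submergence, ratios between 1.5 and 3 were found for 22 members on A01, 26 on A05 and 18 on A03, ratios over 3 for 6, 2 and 3, and ratios between 0.67 and 1.5 for 14, 13 and 20. Ratios under 0.67 were found there for 0, 0 and 4. Most members of A01 and A05 therefore shared an excess of at least 1.5-fold in each treatment, and those without it were more numerous under submergence than in air. On A01 this last difference rests largely on 1 library. Counted by library from log2(CPM + 1), 35, 33 and 36 of the 42 members were over 1.5-fold above Avatar in Zhongshuang 9 air. Under submergence 7 were in replicate 1 and 33 in each of replicates 3 and 4. By the same count, 4842 to 5069 of all 35744 expressed targets were over 1.5-fold above Avatar in Zhongshuang 9 air. Under submergence the range was 5375 to 5849.

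In air the lowest Zhongshuang 9 library was above the highest Avatar library for 39 of 42 members on A01 (92.9%), 33 of 41 on A05 (80.5%) and 25 of 45 on A03, against 24% of all targets at this level of expression. All Zhongshuang 9 air libraries were below all Avatar air libraries for 1 member on A01, 1 on A05 and 8 on A03, against 19.4% of all targets. On A03, 21 of the 24 inner members were wholly above and 1 wholly below, and of the other 21 members 4 were wholly above and 7 wholly below. Under submergence Zhongshuang 9 was wholly above Avatar for 15 of 42 members on A01 (35.7%), 31 of 41 on A05 (75.6%) and 8 of 45 on A03, against 20.3% of all targets. It was wholly below for 1, 3 and 4 members, against 22.4% of all targets. The replicate 1 libraries enter these counts on A01 and A03.

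The fit with edgeR's quasi-likelihood test over all 55674 tested targets put the median log2 difference of Zhongshuang 9 minus Avatar in air at 1.17 on A01, 1.02 on A05 and 0.60 on A03, against 0.07 over all targets. In that fit 69 members were higher and 3 lower in Zhongshuang 9 past the adjusted threshold, in a contrast where 17.1% of all targets were called (6.6% higher and 10.5% lower). The 69 higher members were 33 on A01, 30 on A05 and 6 on A03. Under submergence the medians were 0.90, 0.90 and 0.46, against -0.04 over all targets, and 54 members were higher and 7 lower, with 24.5% of all targets called (10.3% higher and 14.2% lower). These calls repeat the choice of the stretches and support nothing further.

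The single libraries moved these descriptions. Without Zhongshuang 9 submergence replicate 1, the A01 median under submergence was 1.14 in place of 0.90, with 40 members higher in place of 22 and none lower in either fit. Without Avatar submergence replicate 1, the A03 median under submergence was 0.82 in place of 0.46, with 22 members higher and 2 lower in place of 2 and 5. Without Avatar air replicate 1, 10 members of A03 were higher and 4 lower in air, in place of 6 and 2. The A03 calls in air were few under most other omissions: 0 higher and 1 lower without Avatar air replicate 3, with a median of 0.37, and 1 and 1 without Avatar air replicate 4. Omitting Zhongshuang 9 air replicate 1, 3 or 4 left 0 higher and 1, 2 or 1 lower, and omitting Zhongshuang 9 submergence replicate 3 or 4 left 3 and 2 or 2 and 3. They rose to 14 higher and 2 lower without Avatar submergence replicate 1 and to 12 and 6 without Zhongshuang 9 submergence replicate 1. On A01 under submergence, 11 and 12 members were higher when Avatar replicate 3 or 4 was omitted, and 12 and 13 when the same replicates of Zhongshuang 9 were omitted.

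The 2 most abundant members of A01 show the pattern at single-gene level. BnaA01g30390D stood at 48.7, 49.7 and 53 CPM in Avatar air and at 144, 153 and 161 CPM in Zhongshuang 9 air. Under submergence it stood at 28.3, 37.8 and 40.3 CPM in Avatar and at 101 and 115 CPM in Zhongshuang 9 replicates 3 and 4, but at 52.9 CPM in replicate 1. The cultivars did not overlap in either treatment, and replicate 1 was the lowest library of its group.

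BnaA01g30320D had the highest mean CPM of the A01 members, with 1939, 1978 and 1945 CPM in Zhongshuang 9 air. Its Avatar air libraries were spread over 170, 559 and 927 CPM. Under submergence it stood at 200, 299 and 305 CPM in Avatar and at 492, 892 and 907 CPM in Zhongshuang 9, again with replicate 1 lowest. The groups did not overlap, although Avatar air replicates 1 and 4 differed several-fold.

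The largest cultivar differences on A01 among members named by rule were those of BnaA01g30400D and BnaA01g30440D. BnaA01g30400D stood at 1.05 ± 0.106 CPM in Avatar air and 10 ± 2.41 CPM in Zhongshuang 9 air, and at 1.64 ± 0.37 and 12.3 ± 4.45 CPM under submergence (SD, n = 3). BnaA01g30440D stood at 2.05 ± 0.294 and 12.1 ± 1.05 CPM in air and at 4.19 ± 0.669 and 25.8 ± 5.24 CPM under submergence (SD, n = 3). BnaA01g30440D was an exception in Zhongshuang 9 submergence replicate 1, where it stood at 31.7 CPM, above the 21.7 and 24.1 CPM of replicates 3 and 4.

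Between these members lay others without an excess. BnaA01g30480D stood at 5.57 ± 0.447 CPM in Avatar air and 4.74 ± 0.416 CPM in Zhongshuang 9 air, and at 10.7 ± 0.713 and 9.23 ± 0.669 CPM under submergence (SD, n = 3). BnaA01g30490D was lower in Zhongshuang 9 air, at 41.8 ± 10.4 CPM against 89.3 ± 27.3 CPM in Avatar air (SD, n = 3).

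On A05, BnaA05g34080D stood at 183, 178 and 188 CPM in Avatar air and at 338, 345 and 390 CPM in Zhongshuang 9 air. Under submergence it stood at 62.4, 72 and 80.6 CPM in Avatar and at 151, 158 and 163 CPM in Zhongshuang 9. The cultivars were far apart relative to the spread of their replicates in both treatments.

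BnaA05g33810D was the most abundant member of all, with a mean of 1496 TPM per coding length over the 12 libraries. Its Avatar air libraries stood at 3876, 2775 and 2815 CPM and its Zhongshuang 9 air libraries at 4510, 4263 and 4689 CPM. Its submerged libraries stood at 513, 1074 and 1228 CPM in Avatar and at 1188, 1267 and 1332 CPM in Zhongshuang 9. The cultivars overlapped under submergence and did not overlap in air, where the excess was below 1.5-fold.

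The member of A05 with the largest cultivar difference, BnaA05g34000D, was uneven. It stood at 108, 8.82 and 7.05 CPM in Zhongshuang 9 air and at 26.3, 15.1 and 8 CPM under submergence. All 6 Avatar libraries lay between 0.765 and 2.7 CPM, below every Zhongshuang 9 library, and replicate 1 was the highest Zhongshuang 9 library in each treatment. BnaA05g34040D, the next, stood at 2.08 ± 1.12 and 7.51 ± 1.99 CPM in Avatar and Zhongshuang 9 air and at 4.35 ± 2.08 and 11.4 ± 1.12 CPM under submergence (SD, n = 3). BnaA05g34330D showed no excess, at 35.1 ± 1.93 and 34.5 ± 1.42 CPM in air (SD, n = 3). BnaA05g34260D, also named for a low signed difference (Zhongshuang 9 minus Avatar), stood at 55.2, 136 and 79.8 CPM in Zhongshuang 9 air, around the 67.3 ± 3.11 CPM of Avatar air (SD, n = 3).

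On A03, BnaA03g50480D, an inner member chosen after its values were seen, shows the split among Avatar libraries. Avatar air libraries gave 18.1, 5.87 and 5.18 CPM for it in the order of replicates 1, 3 and 4, and submerged Avatar libraries gave 22.1, 3.29 and 2.67 CPM. Zhongshuang 9 libraries stood at 29.2, 31.6 and 30.7 CPM in air and at 15.3, 13.9 and 14.7 CPM under submergence. Avatar submergence replicate 1 was thus above all Zhongshuang 9 submergence libraries, while the other 2 Avatar libraries were several-fold below them.

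BnaA03g50050D, with the largest cultivar difference on A03, followed the same split, with 9.63, 1.68 and 2.06 CPM in Avatar air and 50, 2.37 and 4.06 CPM under submergence. Its Zhongshuang 9 libraries stood at 21.6, 26.5 and 15.3 CPM in air and 49, 64.7 and 66.5 CPM under submergence. BnaA03g50180D was low in Zhongshuang 9 submergence replicate 1 as well, at 1.05 CPM against 6.15 and 6.32 CPM in replicates 3 and 4. Its Zhongshuang 9 air libraries stood at 6.42, 4.92 and 5.9 CPM, above the 2.62, 0.686 and 1.56 CPM of Avatar air.

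The 2 most abundant members of A03 lay outside the inner stretch and showed no excess in Zhongshuang 9, apart from 1 submerged library of BnaA03g49860D. BnaA03g49990D stood at 27.7 ± 1.65 and 30.2 ± 1.32 CPM in Avatar and Zhongshuang 9 air and at 39.3 ± 3.74 and 41.2 ± 1.46 CPM under submergence (SD, n = 3). BnaA03g49860D stood at 36.9 ± 2.01 and 23.2 ± 3.99 CPM in air (SD, n = 3). Relative to submerged Avatar (log2), it stood at 0.72 in Zhongshuang 9 submergence replicate 1 and at -0.59 in the mean of replicates 3 and 4. BnaA03g49940D was lower in Zhongshuang 9 in both treatments, at 4.9 ± 0.542 against 8.29 ± 0.519 CPM in air and 5.55 ± 0.466 against 8.58 ± 1.28 CPM under submergence (SD, n = 3). BnaA03g49910D, the other member named for the lowest signed difference (Zhongshuang 9 minus Avatar), was also lower in Zhongshuang 9. It stood at 11 ± 1.9 against 15.7 ± 1.93 CPM in air and 3.84 ± 0.648 against 9.46 ± 0.753 CPM under submergence (SD, n = 3).

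The limits of the stretches did not all coincide with a step in level. At the lower limit of A01, BnaA01g29890D just inside stood at 2.18 ± 0.227 and 9.93 ± 0.669 CPM in Avatar and Zhongshuang 9 air, and BnaA01g29880D just outside at 0.938 ± 0.224 and 5.37 ± 0.621 CPM (SD, n = 3). At the upper limit, BnaA01g30870D inside stood at 2.12 ± 0.412 and 3.75 ± 0.15 CPM and BnaA01g30910D outside at 5.2 ± 0.194 and 6.68 ± 0.113 CPM (SD, n = 3). In air the excess thus ran on below the lower limit of A01 and tapered at the upper.

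On A03, BnaA03g49560D inside the lower limit stood at 7.52 ± 1.19 and 9.2 ± 0.676 CPM in Avatar and Zhongshuang 9 air, and BnaA03g49480D outside at 4.9 ± 1.53 and 4.2 ± 0.779 CPM (SD, n = 3). BnaA03g50710D inside the upper limit stood at 2.74 ± 0.618 and 4.4 ± 0.383 CPM and BnaA03g50720D outside at 2.63 ± 0.0796 and 4.37 ± 1.11 CPM (SD, n = 3). No step was visible in air at either limit of A03.

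On A05, BnaA05g33630D inside the lower limit stood at 11.2 ± 1.05 and 25.2 ± 9.87 CPM in air and BnaA05g33620D outside at 3.97 ± 0.442 and 4.44 ± 0.604 CPM (SD, n = 3). BnaA05g34440D inside the upper limit stood at 2.52 ± 0.173 and 2.48 ± 0.49 CPM and BnaA05g34450D outside at 0.576 ± 0.156 and 0.72 ± 0.201 CPM (SD, n = 3). In air a step was visible at the lower limit of A05 and none at the upper. Under submergence the lower step was absent: BnaA05g33630D inside stood at 15.5 ± 3.95 and 23 ± 10.3 CPM in Avatar and Zhongshuang 9, and BnaA05g33620D outside at 9.17 ± 0.736 and 15.5 ± 0.965 CPM (SD, n = 3).

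Windows of 10 expressed targets along the chromosomes gave the same picture. On A01 the window from 29610 to 29880, just below the stretch, stood at median log2 ratios to Avatar of 1.41, 1.35 and 1.24 in Zhongshuang 9 air. In Zhongshuang 9 submergence the same A01 window stood at -0.97 in replicate 1, below Avatar, and at 1.18 and 1.09 in replicates 3 and 4. The neighbours within 1000 gene numbers below A01 stood at 135% to 156% of Avatar in Zhongshuang 9 air, at 60.5% in submergence replicate 1 and at 145% and 139% in replicates 3 and 4. Those above the A01 stretch stood at 105% to 115% in all 6 Zhongshuang 9 libraries. Replicate 1 therefore departed from its group over a longer part of A01 than the stretch itself.

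**Figure D2:**
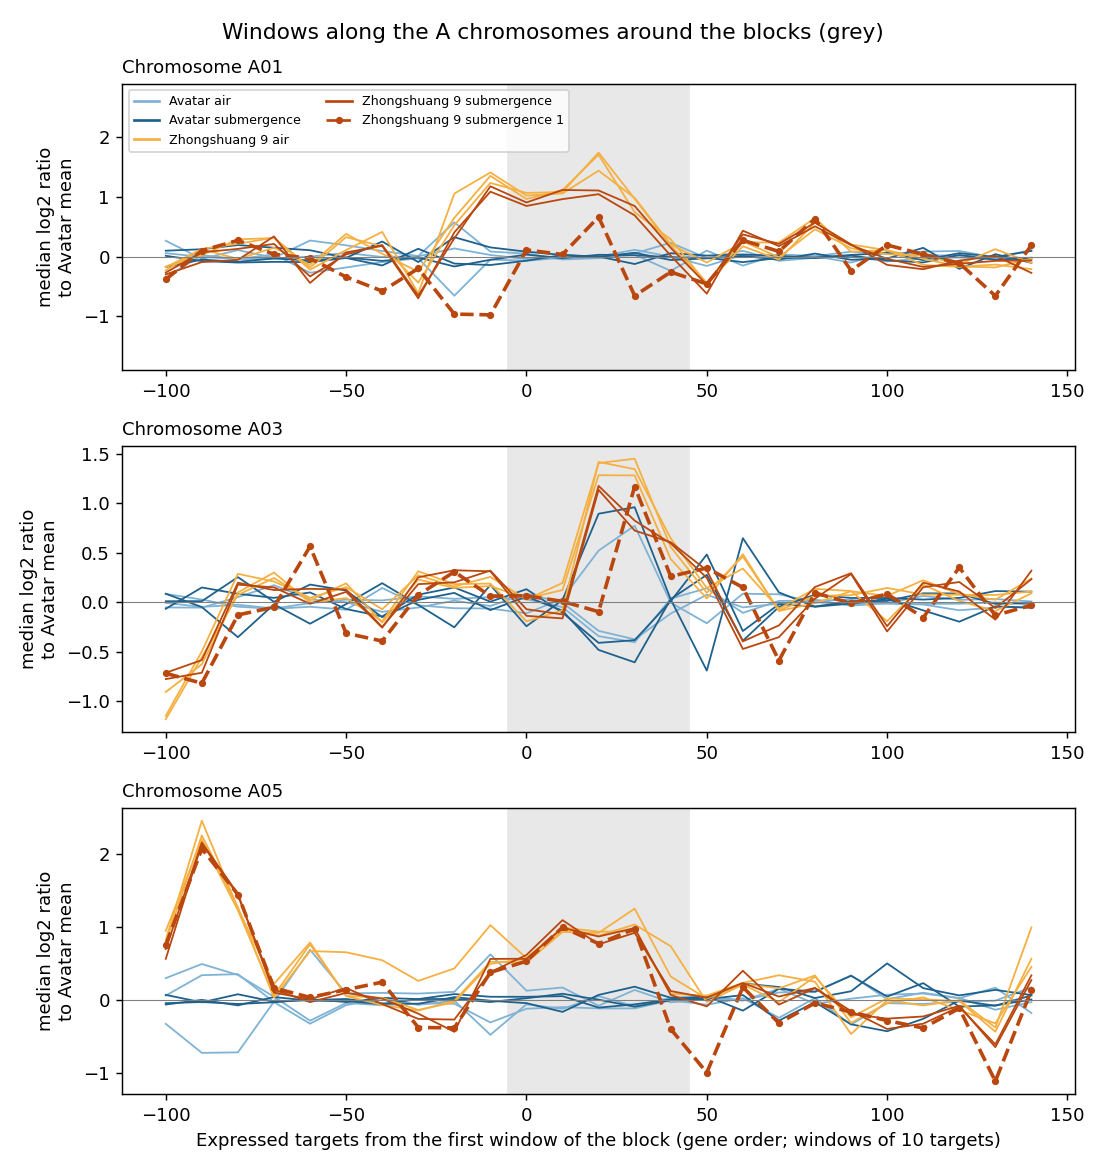
Median log2 ratio to the Avatar mean in windows of 10 expressed targets, in gene order along A01, A03 and A05; each line is a library, the grey band marks the stretch, and the dashed line is Zhongshuang 9 submergence replicate 1. The rise at the left of the A05 panel is a separate run below the stretch, and on A03 only the middle of the band is raised.

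Neighbours of the A03 stretch stood between 102% and 121% of Avatar in the 6 Zhongshuang 9 libraries. Neighbours of A05 on the lower side stood at 137% in Zhongshuang 9 air replicate 1 and between 90.4% and 100% in the other 5. On the upper side of A05 they stood at 115% to 120% in air and at 88.5%, 107% and 109% under submergence. In Zhongshuang 9 the levels within the stretches thus exceeded those of the neighbours, except in the windows just below A01, in the A03 members outside the inner stretch and, on A01, in submergence replicate 1.

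On related C chromosomes, runs of targets were low in Zhongshuang 9. A search of C01, C03, C05 and C07 in windows of 10 expressed targets, with a limit of 25% of Avatar in at least 5 Zhongshuang 9 libraries that was set after the values were seen, found a run on C01 and a pair of runs on C05, and none on C03 or C07. The C01 run, with 144 targets from gene number 37210 to 38640, of which 40 reached 2 CPM, had a summed level of 1739 to 1833 CPM in the Avatar air libraries and 53.3 to 54.2 CPM in the Zhongshuang 9 air libraries. Under submergence the sum was 1119 to 1377 CPM in Avatar, 56 and 55.1 CPM in Zhongshuang 9 replicates 3 and 4, and 1283 CPM in replicate 1. Much of the remaining sum came from BnaC01g38630D, at 27.8 to 33.8 CPM in those 5 libraries and 42.4 CPM in replicate 1. The median of log2(CPM + 1) over the 40 targets gave 8.49% to 10.4% of Avatar in the 5 libraries and 105% in replicate 1. With most targets near 0, the added 1 sets the former percentages, which are upper limits and not levels. The library in which the A01 median was at the Avatar level was thus the library in which the C01 median was at the Avatar level.

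Between 27 and 30 of the 40 C01 targets had at most 2 counts in the other 5 Zhongshuang 9 libraries, and none had so few in submergence replicate 1. BnaC01g38270D, the most abundant target of the C01 run in Avatar and named after its values were seen, stood at 1149, 1116 and 1052 CPM in Avatar air and at 2.06, 0.124 and 0.163 CPM in Zhongshuang 9 air. Under submergence it stood at 333, 487 and 548 CPM in Avatar, at 494 CPM in Zhongshuang 9 replicate 1, at 0.154 CPM in replicate 3 and at 0 in replicate 4. Replicate 1 lay within the range of submerged Avatar, and the other 5 Zhongshuang 9 libraries were far below it.

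The C05 run from 48290 to 48860 held 58 targets, of which 30 reached 2 CPM, and had a summed level of 867 to 1205 CPM in the Avatar libraries and 109 to 142 CPM in the 6 Zhongshuang 9 libraries, replicate 1 included. Between 8 and 14 of its 30 targets had at most 2 counts in a Zhongshuang 9 library. The C05 run from 42640 to 43090 held 46 targets, of which 20 reached 2 CPM, with sums of 544 to 620 CPM in Avatar and 191 to 268 CPM in Zhongshuang 9. Medians of log2(CPM + 1), which the added 1 makes upper limits in these runs, were 8.55% to 10.3% and 15.8% to 19.4% of Avatar. BnaC05g48850D stood between 135 and 355 CPM in the 6 Avatar libraries and at 0.413 CPM or less in every Zhongshuang 9 library. Not every target of these runs was low: BnaC05g48370D stood between 95.7 and 156 CPM in Avatar and between 68 and 95.7 CPM in Zhongshuang 9. In the C05 run from 42640 to 43090, replicate 1 departed in single targets. It had 1 target with at most 2 counts, against 7 and 8 in submergence replicates 3 and 4. It was also sequenced deepest, with 35429422 estimated counts against 30084959 and 24389813. It was the highest of its group for 12 of 20 targets (60%), against 40.6% of all targets. BnaC05g42720D, for instance, stood at 2.99 CPM in it against 0.523 and 0.0748 CPM, and between 12.9 and 19.3 CPM in Avatar. Both C05 runs were low in all 6 Zhongshuang 9 libraries.

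**Figure D3:**
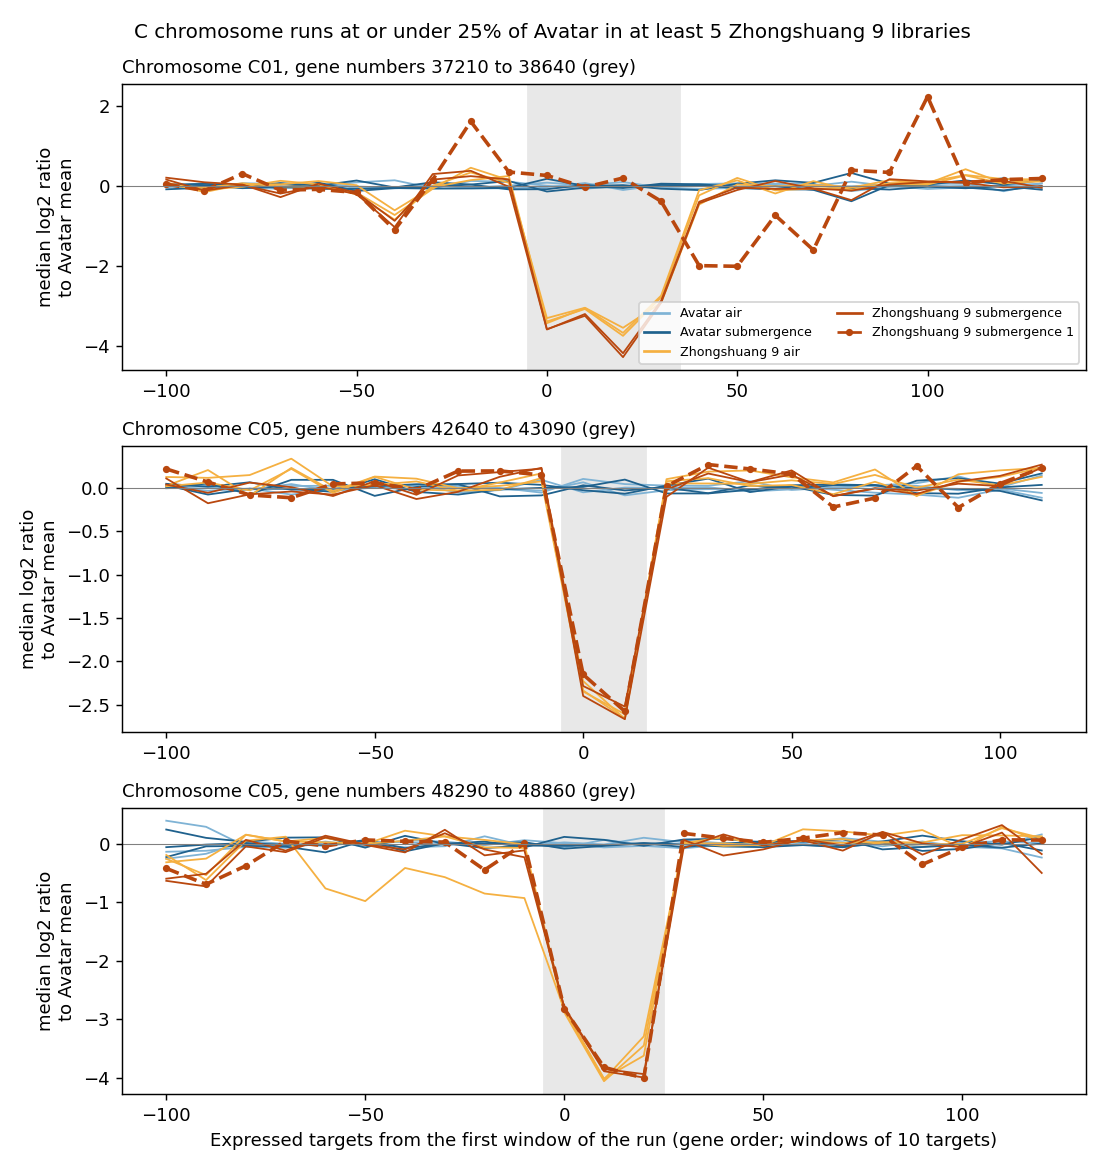
Median log2 ratio to the Avatar mean in windows of 10 expressed targets, in gene order around the 3 runs of C01 and C05 targets at or under 25% of Avatar in at least 5 Zhongshuang 9 libraries (grey); each line is a library. Zhongshuang 9 submergence replicate 1 (dashed) is at the Avatar level in the C01 run (105%), and its window medians are low in both C05 runs, as in the other Zhongshuang 9 libraries.

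The deposited files do not pair A targets with C targets, and DNA was not measured, so whether the A stretches and C runs hold copies of the same genes was not tested. In the C01 windows just beyond the run, from 38650 to 38880 and from 38910 to 39070, Zhongshuang 9 submergence replicate 1 stood at -1.99 and -2.01 (median log2 ratio) while the other Zhongshuang 9 libraries stood between -0.46 and 0.20. Of the identifiers, 20 members matched the RefSeq annotation of the assembly Da-Ae by locus name, 7 on A01, 10 on A03 and 3 on A05, and none carried a product name or symbol. All 7 from A01 lay on A1 between ranks 4119 and 4153 of 4767 genes, and all 10 from A03 on A3 between ranks 6084 and 6421 of 7417. From A05, BnaA05g33790D and BnaA05g33980D lay near the end of A5 at ranks 4575 and 4555 of 4596, while BnaA05g34040D was placed on C5 at rank 6571 of 6606.

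Estimated counts that are not whole numbers arise where reads fit several targets and are divided between them. On A01, 37.4% to 39.4% of the 99 members had such a count in the Avatar libraries, against 22.2% to 26.3% in the Zhongshuang 9 air libraries and 24.2% and 26.3% in Zhongshuang 9 submergence replicates 3 and 4 (tolerance 0.001). Zhongshuang 9 submergence replicate 1 was at 36.4%, close to Avatar. On A05 the shares were 47.6% to 52.4% in Avatar, 36.6% to 42.7% in Zhongshuang 9 air and 43.9% to 50% under submergence, and on A03 34.5% to 37.9% in Avatar and 29.3% to 37.9% in Zhongshuang 9. Over all targets the share was 34.4% to 38.4%. The values of near-identical copies are uncertain individually, and the part of this division in the level differences was not tested.

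Zhongshuang 9 submergence replicate 1 was then compared with replicates 3 and 4 member by member. On A01 the median log2 difference of replicate 1 from the mean of replicates 3 and 4 was -0.86, with quartiles of -1.16 and -0.50. It was 0.00 on A03, -0.15 in the inner A03 stretch, -0.03 on A05 and 0.00 over all expressed targets, whose quartiles were -0.29 and 0.24. Replicate 1 was the lowest library of its group for 37 of 42 members on A01 (88.1%), 21 of 45 on A03 and 21 of 41 on A05, against 41.9% of all targets. The median departure was thus larger on A01 than on the other stretches, whose medians cover members that went both ways. On A03, 6 members between BnaA03g50170D and BnaA03g50230D were at least 1 lower on the log2 scale, among them BnaA03g50170D at 3.16 CPM in replicate 1 against 14.4 and 15.5 CPM in replicates 3 and 4. On A05, BnaA05g34270D stood at 2.91 CPM against 21.7 and 19.8 CPM, and BnaA05g34330D at 17.8 CPM against 50.9 and 48.9 CPM. These members of A03 and A05 were named after their values were seen.

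Of 33 members of A01 at least 1.5-fold above Avatar in replicates 3 and 4, 25 (75.8%) were nearer to Avatar than to those replicates in replicate 1. The same held for 7 of 22 members on A03 (31.8%), 2 of 30 on A05 (6.67%) and 1590 of 5236 of all targets (30.4%). The members of A01 with the largest departures, named after their values were seen, were BnaA01g30630D and BnaA01g30080D. BnaA01g30630D stood at 0.176 CPM in replicate 1 against 24.1 and 26.7 CPM in replicates 3 and 4, below its Avatar libraries at 10.5, 5.69 and 6.89 CPM. BnaA01g30080D stood at 17.9 CPM against 139 and 114 CPM, and at 24.3, 28.7 and 29.5 CPM in submerged Avatar. In these members replicate 1 fell below Avatar rather than to its level. Others did so too, such as BnaA01g30040D at -1.40 and BnaA01g30510D at -1.35 relative to submerged Avatar (log2). BnaA01g30440D at 2.66 and BnaA01g30400D at 1.66 stayed far above it.

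**Figure D4:**
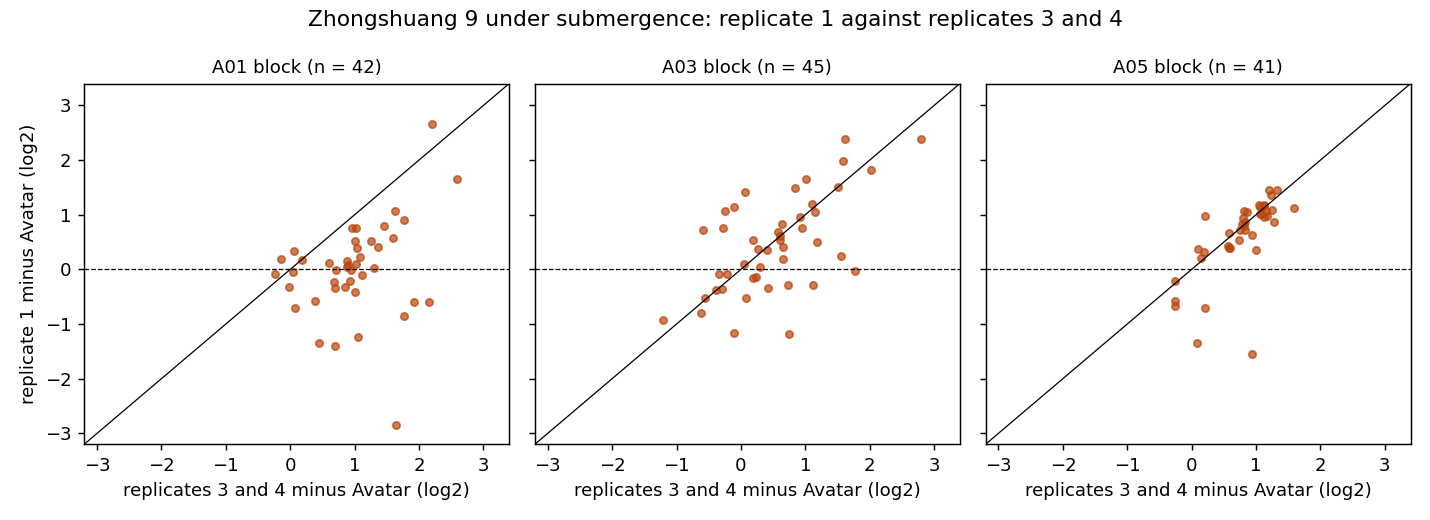
Log2 level relative to submerged Avatar in Zhongshuang 9 submergence replicate 1 (vertical) against the mean of replicates 3 and 4 (horizontal), for members with a mean of at least 2 CPM; the solid line marks equal levels and the dashed line the Avatar mean. On A01 most points lie below the solid line and around the dashed line, and on A05 most lie along the solid line.

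The submergence response answers how the members reacted to 24 h under water in each cultivar. The stretches were chosen by the cultivar difference and not by this response. Each response is formed from levels that the choice used, so its test is not wholly independent of the choice. In Avatar, 32 members rose and 28 fell, 60 of 173 (34.7%), where 40% of all tested targets were called by edgeR's quasi-likelihood test with Benjamini-Hochberg adjustment (21.6% up and 18.4% down). On A01, 9 rose and 6 fell, on A03 10 and 12, and on A05 13 and 10. In Zhongshuang 9, 30 rose and 43 fell, 73 of 173 (42.2%), where 44.5% of all targets were called (22.5% up and 22% down). On A01, 8 rose and 15 fell, on A03 10 and 13, and on A05 12 and 15. Over the 3 stretches together, the shares of members called were near or below those of all targets. On A05 alone they were above, at 43.4% in Avatar and 50.9% in Zhongshuang 9. With members kept by their Avatar level alone, 52 of 134 were called in Avatar (28 up and 24 down), where 45.6% of all targets were.

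In both cultivars 24 members rose (13.9% of 173, against 15.8% of all tested targets) and 25 fell (14.5% against 14.3%), and 2 changed in opposite directions (1.16% against 0.23%). The median log2 response in Avatar was 0.28 on A01, 0.09 on A03 and 0.15 on A05, against 0.11 over all targets. In Zhongshuang 9 it was -0.20, -0.23 and -0.12, against 0.01. Scaling by library totals alone moved the median of all targets to 0.45 in Avatar and 0.29 in Zhongshuang 9, and the calls among members to 55 up and 18 down in Avatar and 43 up and 32 down in Zhongshuang 9. The balance of rising and falling members thus depended on the scaling.

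The response counts of A01 and A03 also depended on the libraries that stood apart. Without Zhongshuang 9 submergence replicate 1, 17 members of A01 rose and 13 fell in Zhongshuang 9, with a median of 0.07, and 16 rose and 8 fell in Avatar. Without Avatar submergence replicate 1, 7 members of A03 rose and 16 fell in Avatar, with a median of -0.55, and without Avatar air replicate 1, 13 rose and 11 fell with a median of 0.54. The A01 median in Zhongshuang 9 was -0.43 and -0.32 without submergence replicate 3 or 4 and -0.13 without air replicate 4. Without submergence replicate 3 the A03 median in Zhongshuang 9 was -0.37, and at a mean of at least 5 CPM it was 0.21. The A05 median in Zhongshuang 9 was 0.13 and 0.09 without air replicate 1 or 4, and 0.04 with members kept by their Avatar level alone. The direction of these medians therefore changed with a single library or filter, that of A03 in Avatar included.

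BnaA03g49610D and BnaA05g33820D rose most in both cultivars among members at 5 CPM or more. BnaA03g49610D stood at 10.3, 7.74 and 7.68 CPM in Avatar air and at 45.6, 34.6 and 39.6 CPM under submergence, a log2 fold change of 2.22 ± 0.23 with an adjusted p of 4.51e-05 by edgeR (SE, n = 3). In Zhongshuang 9 it went from 10.9, 10.9 and 13.1 CPM to 31, 51.7 and 55.3 CPM, a log2 fold change of 1.98 ± 0.23 (edgeR adjusted p = 5.88e-05). All submerged libraries were above all air libraries.

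BnaA05g33820D rose from 4.23, 2.25 and 2.5 CPM to 16.4, 15.5 and 16.3 CPM in Avatar, by 2.42 ± 0.23 (log2 scale, SE, n = 3, with an edgeR adjusted p of 2.73e-05). The rise in Zhongshuang 9 was from 8.78, 7.02 and 6.36 CPM to 21.5, 25.3 and 24.4 CPM, by 1.68 ± 0.22 (edgeR adjusted p = 0.000148). It was higher in Zhongshuang 9 than in Avatar in each treatment, without overlap, and rose in both.

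BnaA03g49870D and BnaA01g30490D fell most in both cultivars. BnaA03g49870D stood at 30.8, 37.2 and 35.7 CPM in Avatar air and at 4.88, 6.94 and 8.44 CPM under submergence, a log2 fold change of -2.35 ± 0.29 with an adjusted p of 0.000143 by edgeR (SE, n = 3). Its Zhongshuang 9 level went from 26.7, 37.1 and 45.8 CPM to 4.32, 5.78 and 8.45 CPM (log2 fold change -2.57 ± 0.30, edgeR adjusted p = 6.15e-05). The cultivars overlapped and the treatments did not.

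BnaA01g30490D stood at 107, 57.9 and 103 CPM in Avatar air and at 21.5, 9.31 and 11.8 CPM under submergence (log2 change -2.65 ± 0.39, SE, n = 3, adjusted p = 0.00039 by edgeR). In Zhongshuang 9 it stood at 52.2, 31.4 and 41.8 CPM in air and at 7.79, 14.4 and 13.8 CPM under submergence (-1.80 ± 0.38, edgeR adjusted p = 0.00279).

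Of the abundant members, BnaA05g34080D fell in both cultivars, by 1.35 ± 0.12 on the log2 scale in Avatar and by 1.19 ± 0.12 in Zhongshuang 9 (SE, n = 3, adjusted p = 1.62e-05 and 2.33e-05 by edgeR). BnaA05g33810D fell by 1.75 ± 0.28 and by 1.83 ± 0.28 (edgeR adjusted p = 0.000665 and 0.0004). BnaA03g49990D rose by 0.50 ± 0.11 and 0.45 ± 0.11 (edgeR adjusted p = 0.00363 and 0.0058). BnaA01g30390D had log2 fold changes of -0.51 ± 0.24 in Avatar (edgeR adjusted p = 0.124) and -0.76 ± 0.24 in Zhongshuang 9 (edgeR adjusted p = 0.0262). In the latter, replicate 1 supplied the lowest submerged value. BnaA01g30440D, far higher in Zhongshuang 9, rose by 1.03 ± 0.19 and 1.09 ± 0.18 (edgeR adjusted p = 0.00163 and 0.000695).

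**Figure D5:**
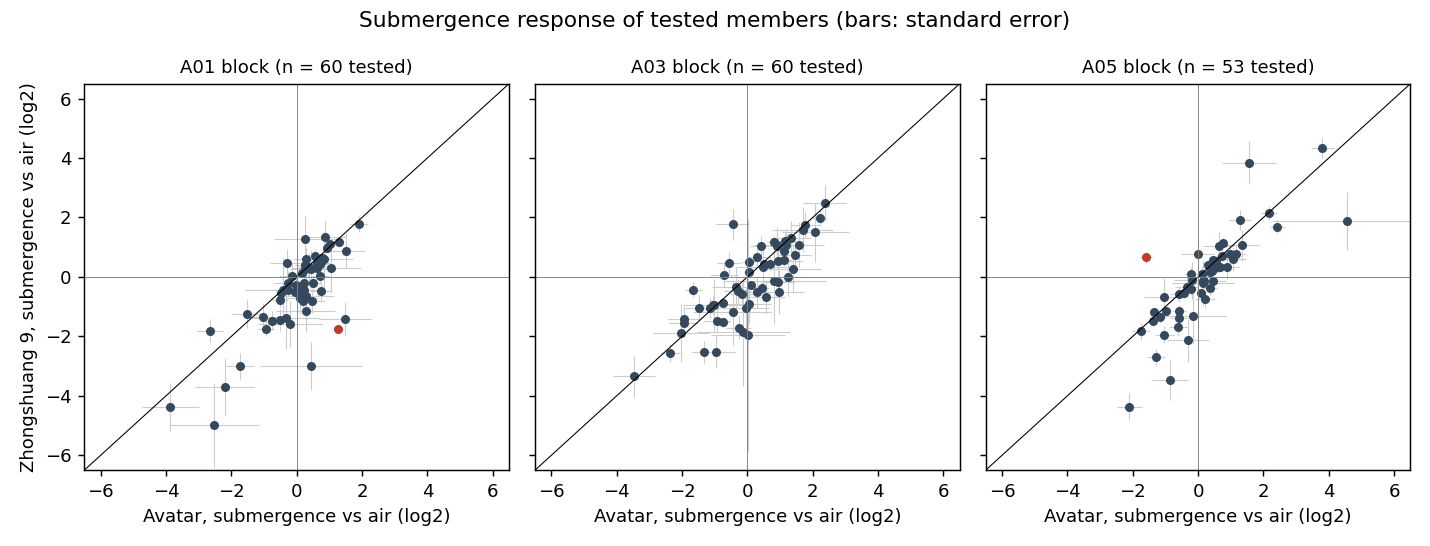
Log2 fold change of submergence against air in Avatar (horizontal) and Zhongshuang 9 (vertical) for the tested members of each stretch, with standard errors from edgeR as bars and the line of equal response; red points are the 2 members whose responses differed (BnaA01g30410D at 1.25 and -1.74, BnaA05g34210D at -1.59 and 0.66). BnaA03g50070D, with a count of 0 in all 3 submerged Avatar libraries, lies outside the axes.

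The difference between the responses, tested as an interaction, passed the threshold for 2 of 173 members (1.16%), where edgeR called 1.25% of all targets (0.438% with a higher and 0.808% with a lower response in Zhongshuang 9). Each direction held 1 of the 2 members. Because this difference is built from the cultivar differences that chose the stretches, the count of calls is not independent of that choice. An unadjusted p under 0.05 was found for 22 members (12.7%), against 16.1% of all targets. The median difference, Zhongshuang 9 response minus Avatar response, was -0.25 on A01, -0.18 on A03 and -0.19 on A05, against -0.09 over all targets. These medians moved with single libraries: that of A03 was 0.33 without Avatar submergence replicate 1, and that of A01 -0.08 without Avatar submergence replicate 1 or Zhongshuang 9 submergence replicate 1 and -0.44 and -0.48 without Zhongshuang 9 submergence replicate 3 or 4.

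BnaA01g30410D rose in Avatar, from 2.62, 2.67 and 2.5 CPM in air to 6.53, 6.09 and 5.99 CPM under submergence, by 1.25 ± 0.15 (log2 scale, SE, n = 3, with an edgeR adjusted p of 0.000138). In Zhongshuang 9 it fell from 17.4, 22.6 and 23.3 CPM to 5.98, 7.41 and 5.61 CPM (log2 fold change -1.74 ± 0.15, edgeR adjusted p = 1.13e-05). The difference between the responses was -2.99 ± 0.22 (edgeR adjusted p = 0.00129, and between 2.33e-25 and 0.0153 over the alternatives). The gene was far higher in Zhongshuang 9 in air, and the cultivars overlapped under submergence. Zhongshuang 9 submergence replicate 1 lay between replicates 3 and 4.

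BnaA05g34210D went the other way. It fell in Avatar from 9.44, 9.79 and 10.9 CPM to 2.47, 4.23 and 3.32 CPM (log2 change -1.59 ± 0.18, SE, n = 3, adjusted p = 9.38e-05 by edgeR) and rose in Zhongshuang 9 from 4.77, 5.44 and 5.68 CPM to 8.51, 8.34 and 8.3 CPM (0.66 ± 0.18, edgeR adjusted p = 0.0125). The difference was 2.25 ± 0.26 (edgeR adjusted p = 0.00705, and between 1.88e-14 and 0.0313 over the alternatives). It was lower in Zhongshuang 9 in air and higher under submergence, without overlap in either treatment.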

How the data were processed

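The authors deposited a table per library with estimated counts and TPM for each coding sequence, with columns named as kallisto writes them, per the file headers. Per the submitters' processing notes, kallisto, edgeR and limma were used; no version is listed there. Build and annotation were not given in the sources used here, and no sequence was used. Both units were taken as deposited, and estimated counts were rounded to whole numbers. Targets were filtered by filterByExpr and scaled by TMM in edgeR 4.0.16 (R 4.3.3), and the quasi-likelihood F test was run with a mean for each of 4 groups over all 12 libraries, with Benjamini-Hochberg adjustment over 55674 targets and a threshold of 0.05. The test was checked on simulated data; the recovery asked of small changes was lowered after a first run in which most of them were missed. Libraries were grouped by cultivar and treatment from the labels. CPM values use TMM-scaled library sizes. No libraries agreed within sampling noise: the chi-square per gene between replicates was 4.79 to 79.7.

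The members, lists and alternatives were chosen with earlier results of these data known, and the inner A03 stretch and the C runs after their values were seen. Named members were the 2 with the highest mean CPM, the 2 with the largest and the 2 with the smallest cultivar difference of each stretch, those next to its limits, those that rose or fell most in both cultivars, and those whose responses differed. Da-Ae gene ranks served only to place identifiers, of which 3347 of 101040 matched. Alternatives used RLE factors, library totals, other filters, DESeq2 1.42.0, limma 3.58.1 on log2(TPM + 1) and log2(TPM + 0.1), the replicate number as a block, fewer libraries, and narrower stretches. The spread against which a median counts as moved was redefined after the alternatives' values were seen.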

Additional observations from a re-analysis of the deposited data

Results flagged for a closer look

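A pair of members was singled out because the submergence responses of the cultivars differed by a direct test of the difference. That test is not independent of the choice of the stretches. For BnaA01g30410D the Zhongshuang 9 response minus the Avatar response was -2.99 on the log2 scale (edgeR adjusted p = 0.00129), with a rise in 3 of 3 submerged Avatar libraries and a fall in 3 of 3 submerged Zhongshuang 9 libraries. For BnaA05g34210D it was 2.25 (edgeR adjusted p = 0.00705), with a fall in 3 of 3 submerged Avatar libraries and a rise in 3 of 3 submerged Zhongshuang 9 libraries.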

How the results depend on the processing

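The log2 responses of the 6 members named for them kept their direction and call in every alternative run. The count of members called in Zhongshuang 9 was 47 of 95 at a mean of at least 5 CPM, where fewer targets are tested and 56.2% of them were called. In the main fit it was 73 of 173, with 44.5% of all targets called. The difference between responses was called for 5 members with DESeq2, 7 with limma on log2(TPM + 1) and 11 without the 5 libraries with shifted chromosome segments, in place of 2; with those 5 libraries left out, a single Avatar air library remains. Cultivar calls under submergence were 38 at a mean of at least 5 CPM and 108 without the 5 libraries, in place of 61.

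Of the cultivar medians (log2), A05 under submergence (0.90) was 0.98 with RLE factors, 0.86 with library totals, 0.86 with no filter, 0.95 with a filter on Avatar, 0.99 with DESeq2, 0.67 and 0.86 with limma with 1 or 0.1 added, 0.93 without the 5 libraries and 0.95 with only the libraries compared. A05 in air (1.02) was 0.61 with limma with 1 added, 0.80 without the 5 libraries and 0.91 with only the libraries compared. A01 in air (1.17) was 0.78, 1.22 and 1.12 in the same settings. A03 in air (0.60) was 1.12 without the 10 outermost members at each end. For these shifts the cause was not tested. Zhongshuang 9 submergence replicate 1 minus replicates 3 and 4 on A01 (-0.86) was -0.75 with TPM. On A05 (-0.03) it was 0.043 with TPM, 0.015 with library totals and -0.088 at a mean of at least 5 CPM.

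With single libraries left out, calls ranged from 51 to 73 in Avatar, 58 to 83 in Zhongshuang 9 and 2 to 3 for the difference. Cultivar calls ranged from 52 to 99 in air and 41 to 80 under submergence. The shares of all targets called in these runs are not given here. Medians ranged in air from 1.10 to 1.21 on A01, 0.37 to 0.66 on A03 and 0.93 to 1.04 on A05, and under submergence from 0.65 to 1.14, 0.33 to 0.82 and 0.81 to 1.05.

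Over all tested targets, same-numbered libraries did not deviate together (correlations of -0.162 to 0.149 over 18 pairs, 2 above 0.1), so the numbers were not taken to pair samples. These correlations do not describe single stretches. In the inner A03 stretch, replicate 1 of Avatar was raised both in air (152%) and under submergence (199%). With the replicate number as a block, calls were 59 in Avatar, 70 in Zhongshuang 9 and 2 for the difference, and the A01 median in air was 1.21. Depth limits members under 2 CPM, for which no levels by library are given.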

Other observations

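A separate run of A05 targets, below the stretch and in no comparison above, was raised in Zhongshuang 9. In the A05 window of 10 expressed targets from 31130 to 31410, median log2 ratios to Avatar were 2.26, 2.20 and 2.46 in the 3 Zhongshuang 9 air libraries and 2.08, 2.14 and 2.16 under submergence. In the next A05 window, from 31420 to 31780, they lay between 1.23 and 1.45 in all 6 libraries, and from 31790 to 31950 between 0.03 and 0.22. The windows were picked after their values were seen.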
